A study of Mus musculus with 6 samples.

Results

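The protein kinase C (PKC) family was followed through RNA sequencing of mouse pluripotent cells and fibroblasts. Its 8 members, Prkca, Prkcb, Prkcd, Prkce, Prkch, Prkci, Prkcq and Prkcz, were taken by gene symbol from a table of 19330 genes, without regard to their values. The study set induced pluripotent stem cell (iPSC) lines whose labels name palmitoylcarnitine (PC iPSC, lines 5 and 13) beside normal iPSC lines (control iPSC, lines 3 and 7), 1 library of embryonic stem cells (ESC) and 1 of mouse embryonic fibroblasts (MEF). Palmitoylcarnitine is the carnitine ester of palmitate and has long been used as an inhibitor of PKC in cell extracts. All iPSC and ESC were kept in medium with 15% serum and leukemia inhibitory factor on a layer of fibroblast feeder cells that mitomycin C had stopped from dividing, and MEF were grown in 10% serum. The ESC library is titled B6, with the source name B6/blu. The reprogramming factors, the strain and age of the animals, and the dose and timing of palmitoylcarnitine were not stated in the labels used here. Each library comes from 1 line or culture, and no label places the lines in separate animals; the p-values cover the spread among these libraries, which may be technical.

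PKC enzymes phosphorylate serine and threonine residues and are sorted into classes by what switches them on. Conventional members (Prkca and Prkcb here) need calcium and diacylglycerol, the lipid that phospholipase C releases in the membrane. Members of a diacylglycerol-only class (Prkcd, Prkce, Prkch and Prkcq) respond to diacylglycerol without calcium. Atypical members (Prkci and Prkcz) respond to neither and act with partitioning-defective proteins to set cell polarity. In mouse embryonic stem cells, broad PKC inhibitors have been used to hold the cells in the undifferentiated state.

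All members are protein-coding genes on separate chromosomes of GRCm38 (mm10). Prkca lies at chr11:107933387-108343888 on the minus strand and Prkcb at chr7:122289104-122634402 on the plus strand. Prkcd lies at chr14:30595353-30626414 (minus), Prkce at chr17:86167785-86657919 (plus), Prkch at chr12:73584796-73778185 (plus) and Prkcq at chr2:11171905-11301226 (plus). The atypical genes are at chr3:30995742-31052740 for Prkci (plus) and chr4:155260118-155361428 for Prkcz (minus).

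The atypical genes Prkcz and Prkci differed from each other in their change between MEF and iPSC, and Prkcb had the largest fall of any member, as given below, so these promoters are shown. Each run is 300 bases from RefSeq (GRCm38.p6), from 250 bases before to 50 after an annotated start, read along the gene's strand. Capitals mark CCAAT boxes (CCAAT or, on the other strand, ATTGG) and the octamer ATGCAAAT, the motif that Pou5f1 and related factors bind. Both strands were searched, and no octamer overlapped a CCAAT box. The Prkcz window is chr4:155361379-155361678 (minus strand), the Prkci window is chr3:30995521-30995820 (plus) and the Prkcb window is chr7:122288875-122289174 (plus).
Prkcz: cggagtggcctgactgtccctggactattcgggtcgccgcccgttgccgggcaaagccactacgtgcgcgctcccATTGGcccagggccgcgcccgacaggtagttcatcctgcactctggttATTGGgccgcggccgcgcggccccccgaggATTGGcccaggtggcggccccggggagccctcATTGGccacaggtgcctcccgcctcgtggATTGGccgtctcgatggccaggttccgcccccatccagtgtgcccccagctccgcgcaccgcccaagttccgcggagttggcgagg
Prkci: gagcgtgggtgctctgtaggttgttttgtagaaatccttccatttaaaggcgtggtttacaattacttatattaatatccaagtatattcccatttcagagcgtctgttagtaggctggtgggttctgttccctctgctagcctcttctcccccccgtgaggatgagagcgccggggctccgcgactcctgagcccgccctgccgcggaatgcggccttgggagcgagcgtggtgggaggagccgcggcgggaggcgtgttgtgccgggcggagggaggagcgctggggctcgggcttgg
Prkcb: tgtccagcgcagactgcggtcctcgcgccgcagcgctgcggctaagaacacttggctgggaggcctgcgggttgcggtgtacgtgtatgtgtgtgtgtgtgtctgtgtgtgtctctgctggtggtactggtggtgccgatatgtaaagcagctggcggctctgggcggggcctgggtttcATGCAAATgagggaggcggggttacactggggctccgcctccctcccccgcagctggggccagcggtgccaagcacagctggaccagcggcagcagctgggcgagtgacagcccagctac
The Prkcz window held 5 CCAAT boxes, all in the ATTGG direction. At least 1 was found in 37.4% of 32851 mouse promoter windows of the same length, and at least 5 in 0.271%. Prkcz has 2 further RefSeq starts inside the gene, and neither of those windows held the letters CCAAT or ATTGG. The Prkci window held none of the capitalised motifs, and its share of G and C was 59.7%, against 71.0% for Prkcz. The Prkcb window held 1 octamer, which occurs in 1.74% of promoter windows. The letters TGACTCA, bound by factors that respond to phorbol esters, were in none of the members' windows and in 5.2% of all windows. A match is a description of letters and not evidence of binding. Prkce and Prkch had no entry.

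Each library held between 26.51 M and 27.99 M assigned reads. Pluripotency markers (8 genes) summed to 3700 to 4940 RPKM (reads scaled by gene length and library total) in iPSC and ESC. In MEF they summed to 246, with 5 of the 8 genes at 0 reads. The 12 fibroblast markers summed to 6700 RPKM in MEF, to 636 in ESC and to 1020, 1630, 1760 and 1510 in control iPSC 3, control iPSC 7, PC iPSC 5 and PC iPSC 13. None of the 12 was at 0 in any library. The MEF library also held reads of all 8 macrophage markers, with a sum of 171 RPKM, against 8.42 to 15.4 in iPSC and 57.5 in ESC.

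The family was carried by 3 genes in every pluripotent library, namely Prkci, then Prkcd, then Prkcz. Levels are RPKM, which can be set side by side between genes. Prkci, the iota kinase of cell polarity, stood at 46.2 RPKM in ESC, 52.4 and 45.7 in control iPSC 3 and 7, 45.2 and 49.6 in PC iPSC 5 and 13, and 40.1 in MEF. It was the highest member in all 6 libraries. Prkcd, the delta kinase linked to stress and apoptosis signalling, stood at 17.3 RPKM in ESC, 14.7 and 18 in control iPSC 3 and 7, 21.2 and 19.2 in PC iPSC 5 and 13, and 25.0 in MEF. It ranked 2 in all 6. Prkcz, the zeta kinase, stood at 9.80 RPKM in ESC, 10.1 and 8.22 in control iPSC 3 and 7, 8.54 and 9.01 in PC iPSC 5 and 13, and 1.36 in MEF. Prkcz ranked 3 in the 5 pluripotent libraries and 6 in MEF.

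The other members were low in pluripotent cells. Prkce, the epsilon kinase, stood at 1.91 RPKM in ESC, 1.31 and 1.57 in control iPSC 3 and 7, 1.64 and 1.68 in PC iPSC 5 and 13, and 3.89 in MEF. Prkca, the alpha kinase that acts at the plasma membrane, stood at 0.978 RPKM in ESC, 1.17 and 1.5 in control iPSC 3 and 7, 1.64 and 1.52 in PC iPSC 5 and 13, and 5.83 in MEF. Prkce ranked above Prkca in each of the 5 pluripotent libraries, by a small margin in the iPSC lines and with both at 1.64 RPKM after rounding in PC iPSC 5, and below it in MEF. Prkcb, the beta kinase best known from blood cells, stood at 0.523 RPKM in ESC, 0.275 and 0.637 in control iPSC 3 and 7, 0.658 and 0.592 in PC iPSC 5 and 13, and 2.59 in MEF. Control iPSC 3 was the lowest library for Prkcb, with 67 reads against 149 in control iPSC 7. Prkch, the eta kinase of epithelia, stood at 0.510 RPKM in ESC, 0.373 and 0.331 in control iPSC 3 and 7, 0.393 and 0.257 in PC iPSC 5 and 13, and 1.11 in MEF. Its iPSC values rest on 23 to 36 reads and overlapped those of Prkcb. Prkcq, the theta kinase of T cells, had 2 reads in each of 5 libraries and 0 in control iPSC 7. All are below the 3 reads that a count of 0 allows, so Prkcq was not detectable at this depth, was not tested and was the only member left out by the filter on low counts.

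**Figure D1:**
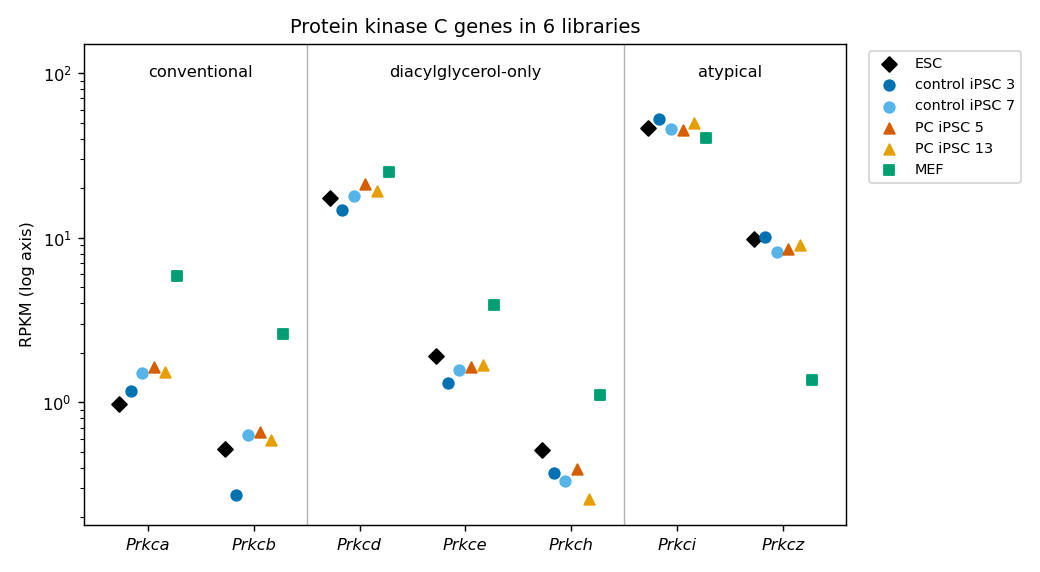
Levels of 7 members in each library, in RPKM on a log axis, grouped by class, with 1 symbol per library. The MEF squares lie above all other symbols for Prkca, Prkcb, Prkcd, Prkce and Prkch and far below them for Prkcz (1.36 against 8.22 to 10.1).

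The summed level of the 8 genes was nearly the same in every library while its make-up differed. It came to 77.2 RPKM in ESC, 80.4 and 75.9 in control iPSC 3 and 7, 79.3 and 82.0 in PC iPSC 5 and 13, and 80.0 in MEF. Atypical genes held 72% ± 4.19 of the sum in iPSC (SD, n = 4), 72.5% in ESC and 51.9% in MEF. The diacylglycerol-only class held 25.4% ± 3.7 in iPSC, 25.6% in ESC and 37.6% in MEF. Conventional genes held 2.52% ± 0.50 in iPSC, 1.94% in ESC and 10.5% in MEF. In reads not divided by gene length, their shares were 5.12%, 3.97% and 20.2%. The diacylglycerol-only class then held 18.6%, 19.2% and 27.6% in iPSC, ESC and MEF, and the atypical genes 76.3%, 76.9% and 52.1%. On the RPKM scale the MEF share lay outside the iPSC range in each class, and the ESC share lay inside it, at 1.8% to 2.9% for conventional genes. Prkcd alone was 31.3% of the sum in MEF and 18.3% to 26.7% in iPSC.

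**Figure D2:**
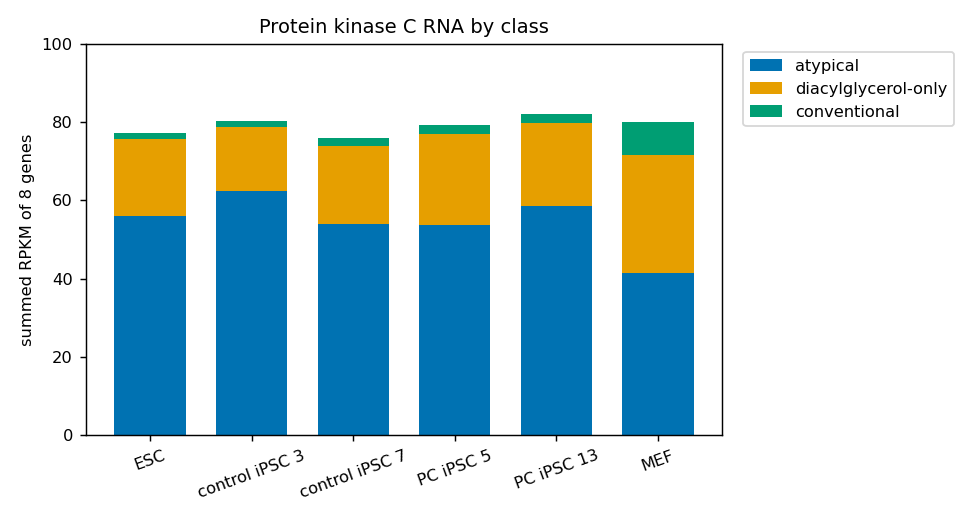
Summed RPKM of the 8 genes in each library, stacked by class. Total heights run from 75.9 to 82.0, and the conventional segment is 8.43 RPKM in MEF against 1.45 to 2.30 in the other libraries.

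Between iPSC and MEF the family split by direction. Prkcz was 6.69-fold higher in iPSC, Prkca, Prkcb, Prkce and Prkch were 2.47-fold to 4.78-fold lower, Prkcd was 1.36-fold lower, and Prkci did not pass the test. By edgeR's quasi-likelihood test with Benjamini-Hochberg adjustment over 16435 genes, 1 of 7 tested members was called higher and 5 lower at an adjusted p under 0.05. Over all genes tested, 36.5% were called higher and 31.6% lower, and 68.1% in either direction, so a call is common in this comparison. Ranges did not overlap for 7 of 7 members, against 89.0% of all genes. The single MEF library is assumed to vary like the iPSC lines.

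Prkcz averaged 8.97 ± 0.822 RPKM in iPSC (SD, n = 4), and its log2 difference from MEF was 2.74 (SE 0.22, edgeR adjusted p = 6.76e-05). All 4 lines were above MEF. Prkca averaged 1.46 ± 0.20 RPKM in iPSC, with a log2 difference of -1.98 (SE 0.19, edgeR adjusted p = 0.000135). For Prkcb, at 0.540 ± 0.179 RPKM, it was -2.26 (SE 0.38, edgeR adjusted p = 0.00175). The conventional genes thus had the 2 largest falls among the members. Prkce, at 1.55 ± 0.165 RPKM, differed by -1.31 (SE 0.20, edgeR adjusted p = 0.00129). Prkch, at 0.339 ± 0.0605 RPKM, differed by -1.70 (SE 0.42, edgeR adjusted p = 0.00998). All 4 iPSC lines lay below MEF for each of these genes.

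Prkcd and Prkci, the most abundant members, moved least. Prkcd averaged 18.3 ± 2.73 RPKM in iPSC, a log2 difference of -0.44 (SE 0.16, edgeR adjusted p = 0.0461). Its call ended in 4 of the 11 other settings, at an adjusted p of 0.0965 without control iPSC 3, 0.0640 without PC iPSC 13, 0.0546 with scaling factors from genes outside chromosome 11, and 0.0505 by limma on log2(RPKM + 0.5). Prkci averaged 48.2 ± 3.44 RPKM, and its difference of 0.29 had a 95% interval of -0.10 to 0.68 (edgeR adjusted p = 0.152). The median gene was 0.16 higher in iPSC than in MEF on this scale, and 0.04 to 0.24 higher in the fits with other scalings, filters and tools. Relative to the median gene, the differences were 2.58 for Prkcz, 0.13 for Prkci, -0.60 for Prkcd, -1.47 for Prkce, -1.86 for Prkch, -2.14 for Prkca and -2.42 for Prkcb.

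**Figure D3:**
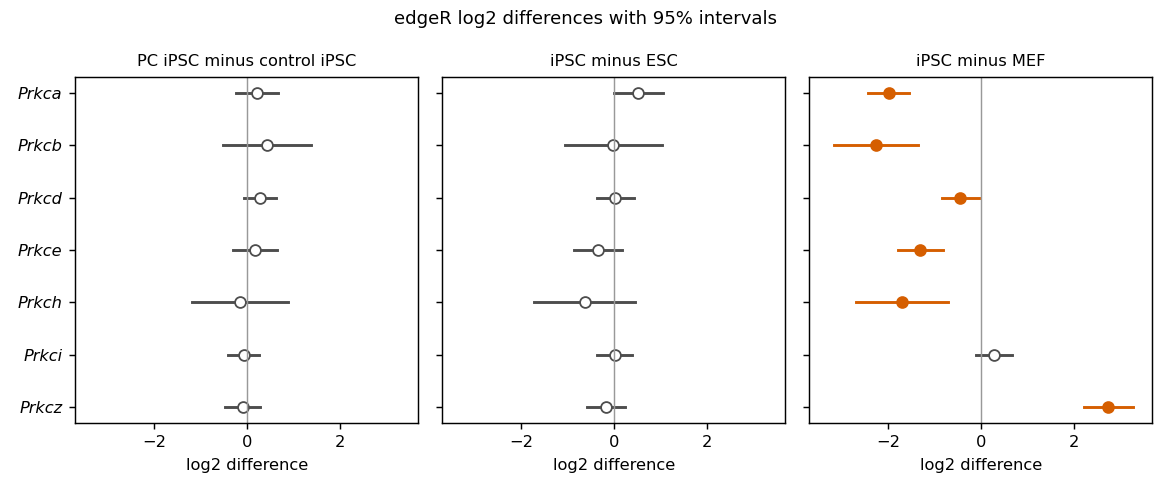
Log2 differences from edgeR for 7 members in 3 comparisons, with 95% intervals; filled orange points passed an adjusted p of 0.05. Calls appear only in the panel against MEF, where Prkcz is at 2.74 and Prkcb at -2.26.

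ESC against MEF, which shares the MEF library with the comparison above, is described without a test because each is 1 library. Prkcz had 42.2 CPM (reads scaled to library size) in ESC and 5.86 in MEF, a ratio of 7.21 (95% counting interval 6.12 to 8.54). Prkca had 8.20 CPM in ESC and 48.9 in MEF, which was 5.97-fold higher in MEF. Prkcb was 4.96-fold, Prkch 2.19-fold and Prkce 2.04-fold higher in MEF. Prkcd was 1.45-fold higher in MEF and Prkci 1.15-fold higher in ESC, both under 2-fold. Of all genes tested, ESC was at least 2-fold higher for 32.2% and at least 2-fold lower for 28.1%.

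The iPSC and ESC were kept on fibroblasts, and fibroblast markers moved along with some members. Prkca stood at 16.8% of its MEF level in ESC, 20.1% and 25.7% in control iPSC 3 and 7, and 28.2% and 26.0% in PC iPSC 5 and 13. The median fibroblast marker stood at 8.14%, 14.3%, 27.6%, 32.3% and 26.0% of its MEF level in the same libraries. Prkcb stood at 20.2%, 10.6%, 24.5%, 25.4% and 22.8% in that order. In control iPSC 7 and both PC lines, Prkca and Prkcb were thus at or below the share of the median marker, and in ESC both were above it. Prkch stood at 45.7%, 33.5%, 29.7%, 35.3% and 23.0% in that order, below the median marker in PC iPSC 13 and above it in the other 4 libraries, though by little in control iPSC 7 and PC iPSC 5. Prkce (33.8% to 49.0%) and Prkcd (58.7% to 84.6%) were above the median marker in all 5 libraries. The summed marker level was 9.50% of MEF in ESC and 15.2%, 24.4%, 26.3% and 22.5% in the iPSC lines, and its part in the members' values was not tested. The macrophage markers of the MEF library summed to 4.92% to 9.02% of their MEF level in iPSC, and their part in the MEF levels of Prkcb, Prkcd and Prkch was not tested. In these bulk samples, fewer cells of a type and less RNA per cell cannot be told apart.

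**Figure D4:**
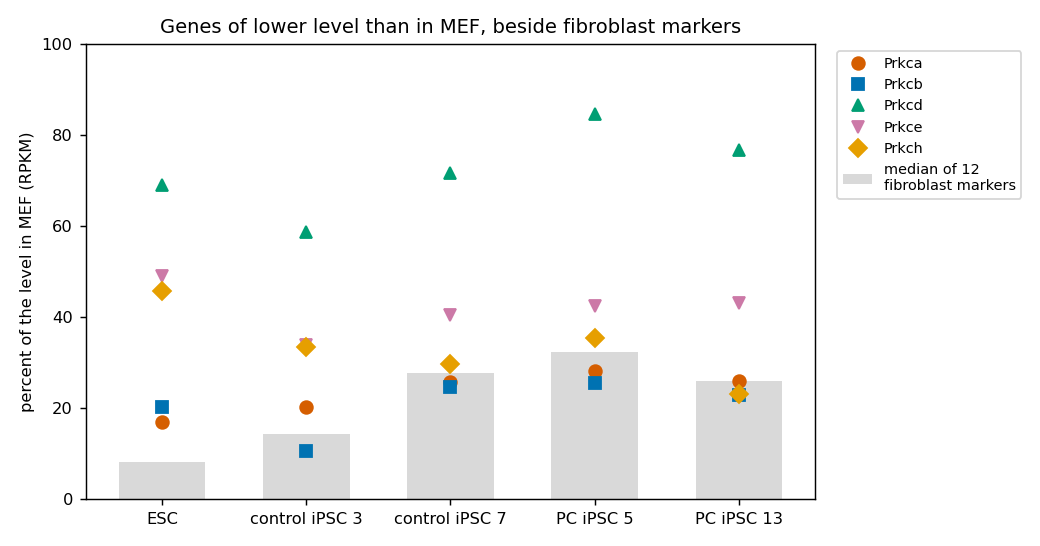
Level of 5 members as a percent of their RPKM in MEF, for ESC and the 4 iPSC lines; grey bars give the median of 12 fibroblast markers on the same scale. Prkca and Prkcb lie near the bars in control iPSC 7 and both PC lines, while Prkcd lies between 58.7% and 84.6%.

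Between iPSC and ESC no member passed the test. The iPSC libraries are the same as in the comparison with MEF. EdgeR called 0 of 7 members, where 10.4% of all genes were called, and DESeq2 also called 0. The smallest unadjusted p was 0.0513, for Prkca, which was 1.44-fold higher in iPSC (log2 difference 0.53, SE 0.22, 95% interval of the fold 0.997 to 2.09, edgeR adjusted p = 0.17). All 4 iPSC lines were above ESC for Prkca, and fibroblast markers were higher in iPSC than in ESC as well, with 7 of 12 called. Prkce was lower in all 4 lines, with a difference of -0.34 (95% interval -0.86 to 0.18), and so was Prkch, with -0.63 (-1.72 to 0.46). Ranges did not overlap for these 3 of 7 members, against 66.5% of all genes. For Prkci the difference was 0.02 (-0.36 to 0.40), for Prkcd 0.03 (-0.37 to 0.43) and for Prkcz -0.17 (-0.58 to 0.24). Prkcb had a wide interval, -1.06 to 1.04.

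Between PC iPSC and control iPSC no member passed the test. EdgeR called 0 of 7 members and 0.0% of all 16435 genes, of which 385 (2.34%) had an unadjusted p under 0.05. The smallest unadjusted p of a member was 0.102. DESeq2 called 0 genes as well, with 248 at an unadjusted p under 0.05. The PC lines lay above both control lines for Prkca, Prkcd and Prkce, which is 3 of 7 members, and ranges did not overlap for 31.4% of all genes. All 3 were higher in MEF than in iPSC. Of the 12 fibroblast markers, 11 also had a positive difference between PC and control iPSC (median log2 0.37, none called), and control iPSC 3 had the lowest marker sum of the 4 lines. The part of the markers in these values was not tested.

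Prkcd had the narrowest interval among the members that were higher in PC iPSC, at 20.2 ± 1.37 RPKM against 16.3 ± 2.31 (SD, n = 2 each). Its log2 difference was 0.28 (SE 0.15, 95% interval -0.07 to 0.64, edgeR adjusted p = 0.963), which allows a fold from 0.950 to 1.56. Prkca stood at 1.58 ± 0.0909 RPKM against 1.34 ± 0.229, a difference of 0.22 (-0.24 to 0.67). Prkce stood at 1.66 ± 0.0240 RPKM against 1.44 ± 0.184, a difference of 0.18 (-0.30 to 0.66). Control iPSC 3 was the lowest of the 4 lines for each of these genes. For Prkci the difference was -0.07 (-0.41 to 0.27) and for Prkcz -0.08 (-0.46 to 0.29). The intervals of Prkcb (0.43, -0.51 to 1.38) and Prkch (-0.14, -1.18 to 0.89) reached beyond 2-fold. For Prkcb the control lines differed from each other, and its value was -0.05 without control iPSC 3 and 1.17 without control iPSC 7. Prkch had 23 to 36 reads in each line. No member was called when any 1 of the 4 lines was left out, although without control iPSC 7 the count over all genes went from 0 to 309.

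Prkca lies on chromosome 11, whose genes stood apart in 2 libraries. In PC iPSC 5 the median of 1352 tested genes of chromosome 11 was 0.39 above the mean of the other iPSC lines on the log2 scale, with 89.0% of them higher, while medians of the other autosomes ran from -0.07 to 0.01. Prkca was 0.19 above in that line. In ESC the chromosome 11 median was 0.28 above the iPSC mean, with 70.5% of genes higher, and Prkca was 0.50 below it (a log2 difference of -0.50). The difference of Prkca thus had the sign of its chromosome median in PC iPSC 5, at a smaller size, and the opposite sign in ESC. Of the 10 tested genes with starts nearest to that of Prkca, 9 were higher in PC iPSC 5 (log2 differences from -0.10 for Pitpnc1 to 0.84), and 9 were higher in ESC. The exception in ESC was Cacng5, which adjoins Prkca and, at a low level of 0.293 RPKM in iPSC, was 0.69 below the iPSC mean (a log2 difference of -0.69). In the other lines Prkca was 0.11 above the mean in PC iPSC 13, 0.09 above it in control iPSC 7 and -0.38 from it in control iPSC 3. The chromosome 11 median was -0.12 in each of these lines, opposite in sign to Prkca in PC iPSC 13 and control iPSC 7. What the chromosome 11 shift contributes to the value of Prkca was not tested. Sqstm1, Gnb2l1, Llgl2 and Dgke, named below, also lie on chromosome 11, and its part in their values was not tested.

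The deposited coverage is the percent of a gene's length with reads. In each pluripotent library it was lower for Prkca than the median of genes of like length and level. Prkca was covered over 69.82% of its length in ESC, 87.04% and 74.75% in control iPSC 3 and 7, and 81.09% and 70.71% in PC iPSC 5 and 13, against 99.53% in MEF. Genes within 20% of its length and its RPKM in the same library had medians of 87.8% to 93.7% in the pluripotent libraries. Only 1 of 35 such genes was covered less in ESC, 1 of 34 in PC iPSC 13 and 3 of 36 in control iPSC 7. Prkca stood out less in PC iPSC 5, with 8 of 45, and in control iPSC 3, with 12 of 39. The file does not say which bases lacked reads. Prkcb, with fewer reads, was covered over 78.48% in ESC and 55.67% in control iPSC 3, against medians of 76.0% and 48.0% for genes like it.

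Sequence shared with other genes could touch Prkcz most. Of the 31-base stretches of its annotated transcripts, 18.3% also occur in the pseudogene Prkcz2, which is not in the count table. The share was 6.6% for Prkcq, 6% for Prkce and at most 1.69% for the other members. The file headers call the counted reads unique (Uniq_reads_num) without defining the term. How reads that fit both genes were handled is not stated beyond that, so the level of Prkcz is uncertain to that extent. Apoh, on the opposite strand, shares exon bases with Prkca, and it stood at 0 to 0.15 RPKM. AC154542.1, on the same strand as Prkce, shares exon bases with it and is not in the count table. It holds 416 of the 433 shared stretches of Prkce, and its part in the level of Prkce was not tested.

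Members differed in which genes their profiles resembled. Profiles were log2(RPKM + 0.5) over the 6 libraries, centred on each gene's mean, and likeness was the Euclidean distance in log2 units among genes whose mean RPKM reached 1. The genes nearest to Prkcz were Rfc2, a clamp-loader subunit of DNA replication (distance 0.06), and Fen1, a flap endonuclease (0.13). Rfc2 fell from 56.3 to 66.4 RPKM in pluripotent libraries to 11.5 in MEF. Nearest to Prkci were Ywhaz, a 14-3-3 adaptor protein (0.08), and Pomp, a proteasome assembly factor (0.09). Nearest to Prkca were Ephx1, an epoxide hydrolase (0.13), and Arl6ip5 (0.13). For Prkcd they were Hmgcs1, of cholesterol synthesis (0.13), and the peroxiredoxin Prdx5 (0.14). Zfp398 (0.09) and Crtc2 (0.14) were nearest to Prkce. The added 0.5 RPKM flattens the profiles of low genes. It is near or above the pluripotent levels of Prkcb, Prkch and Prkcq, so no likeness is given for them. The atypical pair lay 1.94 apart. Each distance rests on only 6 libraries, and how much each library adds to it was not computed.

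Genes that work around PKC were taken from 8 lists with 82 genes in the table, all of them tested. Between PC and control iPSC 0 of 82 were called by edgeR, and between iPSC and ESC 4 were higher and 6 lower, which is 12.2% against 10.4% of all genes. Between iPSC and MEF 35 were higher and 26 lower, which is 74.4% against 68.1%. The median log2 difference of the 82 genes from MEF was 0.22, beside 0.16 for all genes.

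Among close relatives, 2 of 7 were higher and 3 lower in iPSC than in MEF, with a median of -0.61. Pkn3, a protein kinase N, was 16.6-fold higher in iPSC, at 9.98 ± 1.25 RPKM (SD, n = 4) against 0.606. Its relative Pkn2 did not pass, at 23.4 ± 1.37 against 20.9. The protein kinase D genes Prkd2 and Prkd3, which act downstream of PKC, were 2.28-fold and 1.53-fold lower, and Prkd1 did not pass (1.58-fold lower, edgeR adjusted p = 0.0959).

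Enzymes that make and remove diacylglycerol changed in both directions against MEF. Of 12 phospholipase C genes, 3 were higher and 4 lower in iPSC. Plcb1 stood at 0.187 ± 0.0484 RPKM in iPSC and 9.42 in MEF, 49.6-fold lower, and Plce1 at 0.870 ± 0.246 and 16.0, 18.3-fold lower. Plcd4 and Plcb4 were 3.34-fold and 3.28-fold higher. Of 10 diacylglycerol kinases, which convert the lipid to phosphatidic acid, 6 were higher and 2 lower. Dgke, a kinase that prefers arachidonoyl diacylglycerol, was 5.55-fold higher in iPSC, at 8.60 ± 1.74 RPKM against 1.56, and Dgka was 1.5-fold lower. Dgki was 11.2-fold higher on 4 MEF reads, a call that was lost by limma on log2(RPKM + 0.5), at an adjusted p of 0.0936, and with quantile normalization, where the log2 difference was 0.16 (limma adjusted p = 0.611). Dgkb was 25.3-fold lower in CPM (counting interval 10.6 to 73.1), on 6 iPSC reads in all. Of 9 other diacylglycerol-binding proteins, 5 were higher and 2 lower. They include the Ras activators Rasgrp4, 20.8-fold higher at 7.65 RPKM in iPSC, and Rasgrp3, 16.4-fold lower at 0.128. Rasgrp2 was 35.4-fold higher (12 to 172) against 3 MEF reads. Unc13c was 124-fold lower (64.3 to 273), and its call was lost in DESeq2 (adjusted p = 0.208).

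Of 12 polarity genes, which include partners of the atypical members, 5 were higher and 2 lower in iPSC than in MEF, beside 36.5% and 31.6% of all genes. Their median log2 difference was 0.33, beside 0.16 for all genes. Llgl2, a lethal giant larvae protein that atypical PKC phosphorylates, stood at 45.9 ± 11 RPKM in iPSC and 2.71 in MEF, 17.1-fold higher. Crb3, of the apical Crumbs complex, was 19.8-fold higher, at 4.87 ± 0.308 RPKM against 0.246. Pard6b, an adaptor that binds atypical PKC, was 5.09-fold higher, and its paralog Pard6g was 1.56-fold lower. Pard3b was 38.2-fold lower, and Pard3 did not pass (edgeR adjusted p = 0.0515). The 6 epithelial markers were all higher in iPSC than in MEF, with a sum of 209 to 247 RPKM against 8.10, and their part in the polarity genes was not tested.

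Scaffolds, regulators and substrates were also mixed. Of 9 scaffolds, 5 were higher in iPSC than in MEF and 4 lower. Gnb2l1, the receptor for activated C kinase, was 3.31-fold higher and the anchoring protein gene Akap12 4.04-fold higher, and Akap5 rose 8.22-fold from a low level. Akap13 was 5.18-fold lower. Prkcdbp, which encodes a caveolar protein that binds the delta kinase, stood at 7.36 RPKM in ESC, 4.55 and 31.3 in control iPSC 3 and 7, 30.3 and 27.3 in PC iPSC 5 and 13, and 143 in MEF. Control iPSC 3 stood far below the other 3 iPSC lines. Prkcdbp did not pass between PC iPSC and control iPSC when all 4 lines were used (log2 0.66, SE 0.71), but it was called without control iPSC 7 (2.65, edgeR adjusted p = 4.99e-14) and turned to -0.14 without control iPSC 3. Its fall from MEF, 6.19-fold, was lost in DESeq2 (adjusted p = 0.0504) and in limma on log2(RPKM + 0.1) (adjusted p = 0.0535). Of 11 priming kinases, chaperones and phosphatases, 4 were higher and 4 lower. The chaperone Hsp90aa1 was 9.66-fold higher, while Mapkap1, a subunit of the kinase complex that primes PKC, was 2.20-fold lower and the PKC phosphatase Phlpp1 2.09-fold lower. Of 12 substrates, 5 were higher and 5 lower. Marcks, the myristoylated PKC substrate at the membrane, was 6.31-fold lower in iPSC at 16.1 ± 2.32 RPKM against 103, and Add3, an adducin, was 3.85-fold lower. Lmnb1, encoding lamin B1, was 34.3-fold higher at 141 ± 18.9 RPKM against 4.16. Nrgn, with 140 iPSC reads and 0 in MEF, was at least 12-fold higher against a floor of 3 reads per library.

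**Figure D5:**
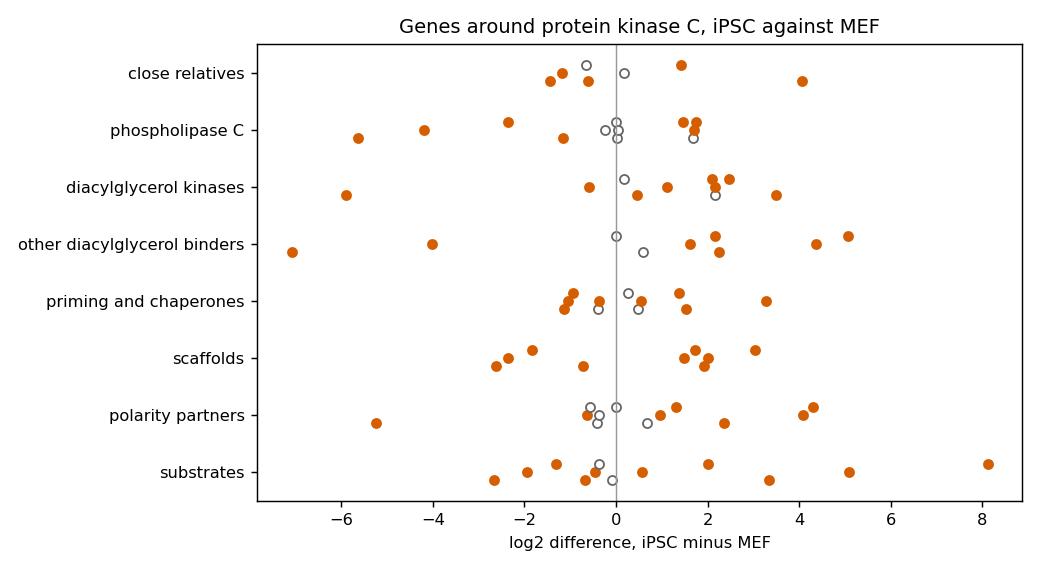
Log2 difference between iPSC and MEF for the 82 genes of 8 lists, 1 point per gene; filled orange points passed an adjusted p of 0.05 in edgeR. Points lie on both sides of 0 in every list, with 35 called higher and 26 lower.

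Against ESC, 10 of the 82 genes were called by edgeR. Higher in iPSC were Plcd4 (4.04-fold), Plce1 (3.23-fold), the vesicle-priming gene Unc13b (1.82-fold) and the caveolar gene Sdpr (2.91-fold). Lower were Plcg2 (1.78-fold), Rasgrp2 (3.53-fold), Rasgrp1 (2.29-fold), Sqstm1 (1.83-fold), Pard6b (1.93-fold) and Crb3 (3.8-fold). Epithelial markers summed to 377 RPKM in ESC and 209 to 247 in iPSC, with 3 of 6 called lower in iPSC (median log2 -1.29), beside the fall of Pard6b and Crb3. Fibroblast markers were called higher in iPSC for 7 of 12 (median 1.62), beside Plce1 and Sdpr, which stood at 16.0 and 43.7 RPKM in MEF. The part of either marker list in these genes was not tested. Sqstm1, the autophagy receptor that binds atypical PKC, stood at 263 RPKM in ESC and 130, 134, 198 and 135 in control iPSC 3, control iPSC 7, PC iPSC 5 and PC iPSC 13. It lies on chromosome 11, whose median was raised in ESC and PC iPSC 5, and the part of that shift was not tested. Crb3 stood at 18 RPKM in ESC and 4.48 to 5.16 in iPSC, and was the 1 gene of the 10 whose call held in all other settings, with adjusted p from 4.29e-06 to 0.0462. The other 9 calls were lost in each of the 3 limma settings, where adjusted p ran from 0.0518 to 0.167. Of these, the call for Rasgrp1 was also lost without PC iPSC 13 (edgeR adjusted p = 0.0607), and that for Sdpr without PC iPSC 13 (0.0592) or PC iPSC 5 (0.0579). Between PC and control iPSC the leading gene of these lists with a mean iPSC RPKM of at least 1 was Rasgrp2, at 1.30 RPKM against 2.12 (log2 -0.73, SE 0.36), closely followed by Plcd4, at 1.69 against 1.01 (log2 0.72, SE 0.31). The leading genes of 5 other lists differed by 0.66 (Prkcdbp), 0.48 (the phosphatase inhibitor gene Ppp1r14a), 0.37 (Pard3), 0.27 (Dgke) and 0.18 (Phlpp2). None of these 7 genes passed, with an edgeR adjusted p of 0.963 for each. Dgke lies on chromosome 11 and was highest in PC iPSC 5, at 11.2 RPKM.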

How the data were processed

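Per the file headers, the authors deposited whole-number counts per gene of reads called unique, library totals and RPKM values. They also deposited a coverage signal (percent of the gene covered, which exceeds the whole gene for some genes). The submitters' processing notes name CASAVA 1.8.2 and mm10 without their roles; no label or header names an aligner, an annotation or a strand setting. RPKM recomputed from counts, lengths and totals differed from the deposited values of the members by a relative difference of at most 3.6e-15. Among genes with 1 to 20 reads, 62.4% to 67.5% of counts were even, so low counts may hold fewer fragments than reads, and intervals and floors cover counting error only.

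The test on counts was that of edgeR 4.0.16, run in R 4.3.3 (quasi-likelihood test, TMM scaling, default expression filter, 16435 genes, Benjamini-Hochberg adjustment, threshold 0.05). The model had 4 group means over 6 libraries, 2 residual degrees of freedom and a biological coefficient of variation of 0.18. Alternatives were DESeq2 1.42.0, limma 3.58.1 on log2(RPKM + 0.5) or log2(RPKM + 0.1), other scalings and filters, and leaving out each iPSC line. The planned protein comparison was not made. The members, lists and tests were chosen with earlier results of these data known. Up to 2 genes in each direction of largest log2 difference past the threshold were named per list, and Pitpnc1, Cacng5, Pard6b and Gnb2l1 were named after their values were seen. Some genes of these lists are counted but not reported here by name.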

Additional observations from a re-analysis of the deposited data

How the results depend on the processing

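Against MEF, 1 member was called higher in every setting and 4 or 5 lower, the fifth being Prkcd. The number of genes called between PC and control iPSC was 0 in all settings except without control iPSC 7 (range when 1 line was left out 0 to 309). Between iPSC and ESC it was 1713, but 277, 237 and 485 by limma on log2(RPKM + 0.5), on log2(RPKM + 0.1) and with quantile normalization, and 1781 to 2873 when 1 line was left out. The share of those calls that were higher was 45.2%, 55.3% by DESeq2 and 64.6% by limma on log2(RPKM + 0.1). The limma settings used genes with a mean RPKM of at least 0.2, a limit chosen after seeing the data. Directions turned only for values that had not passed the test. With 1 line left out, values between PC and control iPSC ran from -0.05 (without control iPSC 3) to 1.17 for Prkcb, from -0.45 to 0.11 (without PC iPSC 13) for Prkch, from -0.17 to 0.04 (without control iPSC 3, and 0.03 without PC iPSC 5) for Prkci, from -0.22 to 0.08 (without control iPSC 3) for Prkcz, and from -0.14 (without control iPSC 3) to 2.65 for Prkcdbp. Between iPSC and ESC they ran from -0.38 to 0.21 for Prkcb, from -0.05 to 0.08 for Prkcd and from -0.05 to 0.07 for Prkci. Prkcb was also 0.01 with upper quartile factors and by limma on log2(RPKM + 0.5), and Prkci -0.01 with scaling outside chromosome 11. The cause was not tested. No paired analysis was possible because no pair of groups compared with a test shares a replicate number.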
